A study of Arabidopsis thaliana with 6 samples.

Results

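The embryo-defective (EMB) genes of Arabidopsis thaliana were taken as the genes whose symbol in the platform annotation is EMB followed by a number, with the brightest probe set kept for each gene. Of 13356 genes with a probe set assigned to a single gene, 1 met this rule: EMB2786, locus AT3G17300, a protein-coding gene. In RefSeq (assembly TAIR10.1) 160 genes carry such a symbol, and the other 159 were not analysed here. The values below therefore describe EMB2786 and cannot be carried over to embryo-defective genes as a class.

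The EMB symbols come from mutant screens for Arabidopsis plants that segregate seeds with arrested embryos, and a gene carries one because its loss stops the embryo from completing development. Many genes named this way encode proteins of basic cell functions, such as protein synthesis, RNA processing and plastid biogenesis, so their transcripts are usually found in growing vegetative tissue as well as in seeds. The annotation used here gives no product for EMB2786.

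Transcript levels had been measured on 6 Affymetrix arrays, 2 per genotype, from total RNA of whole 5-day-old seedlings grown under 16 h of light and 8 h of dark with no treatment. The genotypes were a line labelled atvap mutant, the wild type with TaVAP overexpression (TaVAPOE) and the wild type (WT). The labels name neither the mutated locus, the promoter that drives TaVAP nor the number of independent lines behind each genotype. The replicates are called biological, but nothing says that they came from separate cultures, so p-values measure only the spread between these arrays. By its title the series concerns the role of TaVAP in stress tolerance, and VAP proteins anchor contacts between the endoplasmic reticulum and other membranes.

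The arrays did not all match. The 2 TaVAPOE arrays, atvap mutant replicate 2 and WT replicate 2 correlated with each other at Pearson r of 0.94 to 0.98 across 22746 probe sets, and are called the 4 concordant arrays. The atvap mutant replicate 1 array correlated with them at 0.19 and WT replicate 1 at 0.52 to 0.53, as descriptions across genes, which are not independent replicates. Of the 5 green-shoot markers 3 were analysed here (RCA, LHCB4.1 and PSAE1, genes of photosynthesis), with means of 9.16 to 9.21 log units on the concordant arrays. Their summed value was 10.8 on atvap mutant replicate 1 and 27.7 on atvap mutant replicate 2, 27.3 and 27.4 on the TaVAPOE arrays, and 27.2 and 27.8 on the WT arrays. Of 5 root markers EXPA7 had a single-gene probe set in the annotation used, with a mean of 2.38. It read 1.69 to 3.12 on the concordant arrays, 3.79 on atvap mutant replicate 1 and 1.755 on WT replicate 1. The other 4 root markers, the 14 seed-storage markers and the 6 cell-division markers were not analysed here. The makeup of the seedlings was thus checked only for green tissue. On atvap mutant replicate 1 the low sum is not particular to green tissue. There 99.6% of all 514 probe sets with a concordant mean of 7 and above were lower than that mean by over 1 log unit. Of these probe sets 78.6% were lower by over 1 log unit on WT replicate 1, where the 3 markers summed to 27.2. In whole seedlings fewer cells of a type and less RNA per cell cannot be told apart.

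EMB2786 gave a moderate signal in 5-day-old seedlings. Its 1 probe set read 3.29 and 3.55 log units on the atvap mutant arrays, 3.95 and 3.85 on the TaVAPOE arrays, and 2.97 and 4.03 on the WT arrays, each pair in the order replicate 1, replicate 2. The highest and the lowest value both came from WT, and the TaVAPOE and atvap mutant values lay between them. The mean over the 4 concordant arrays was 3.84 log units, above that of 82.5% of the 13356 genes and of 78.5% of all probe sets tested. This is a place in the distribution of signals and not an amount of RNA, since probe sets differ in brightness. No array read EMB2786 below 1.66, the 20th percentile of all values. No detection calls were used here, so a signal at this height was not set against a measured background. The base of the log scale is not stated, and differences are given in its units without a fold change.

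The position of EMB2786 within each array is a reading that the scaling of an array does not move, as long as it keeps the order of the probe sets; it was added after the values had been seen. The share of probe sets with a lower value was 73.3% and 71.8% on the atvap mutant arrays, 79.4% and 76.8% on the TaVAPOE arrays, and 56.4% and 82.0% on the WT arrays. By this reading the atvap mutant replicates stood next to each other, although atvap mutant replicate 1 read lower in log units. That array correlated with the concordant arrays at only 0.19, so near positions of 1 gene do not show that the replicates agreed. WT replicate 1 alone placed the gene near the middle of the array, at 0.14 log units above that array's median. On the other 5 arrays it lay 0.41 to 1.29 log units above the median.

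**Figure D1:**
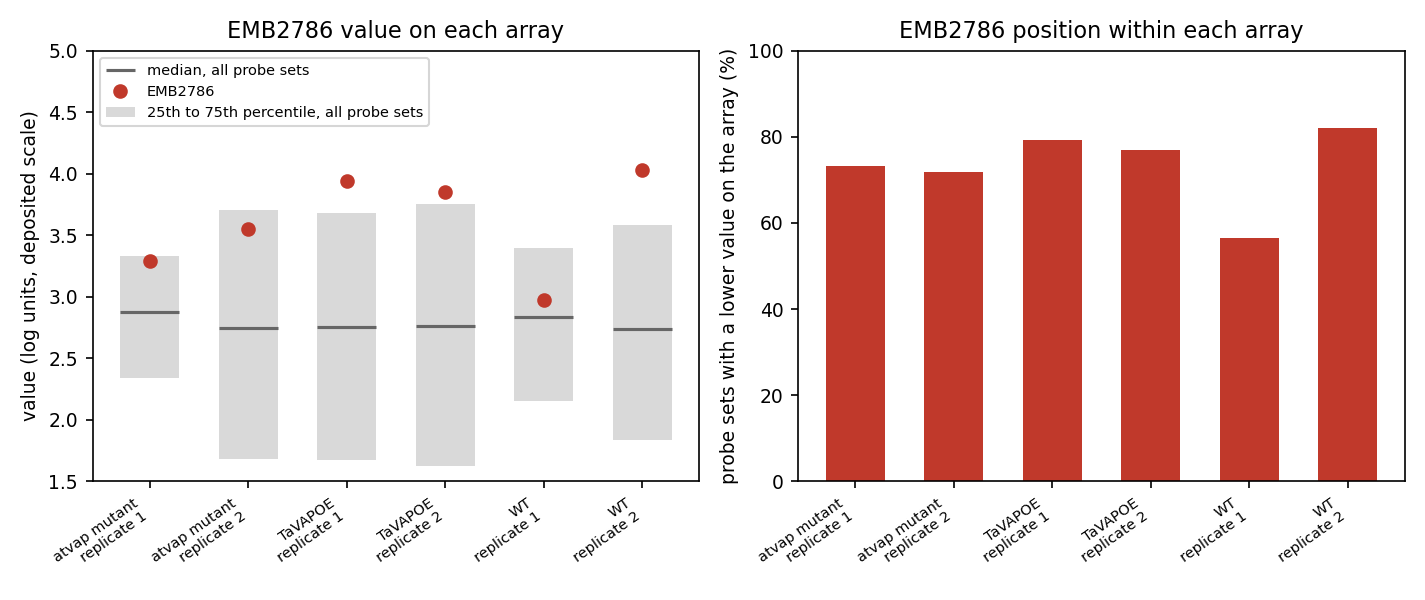
Value of EMB2786 (left, log units on the deposited scale) over the median and the 25th to 75th percentile of all 22746 probe sets, and the share of probe sets with a lower value on the same array (right, %), for each of the 6 arrays. WT replicate 1 has the lowest value (2.97) and the lowest position (56.4%), and WT replicate 2 the highest value (4.03) and the highest position (82.0%).

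On the 4 concordant arrays the order of EMB2786 was atvap mutant lowest, TaVAPOE next and WT highest, at 3.55 on the single atvap mutant array, 3.90 ± 0.067 in TaVAPOE (SD, n = 2) and 4.03 on the single WT array. The genotypes spanned 0.47 log units from the lowest to the highest, while the TaVAPOE replicates differed by 0.094. A span of this size was ordinary, since 45.8% of all probe sets had one at least as wide. Among the 6829 probe sets with a concordant mean from 3 to 5, the range that holds EMB2786, the share was 47.3% and the median span 0.45 log units. The median TaVAPOE pair difference in that range was 0.18, and a span over 3 values tends to exceed a difference between 2. The TaVAPOE replicates agreed more closely on EMB2786 than on most probe sets of that range, where 71.4% had a pair difference at least as large.

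Between the atvap mutant and WT, EMB2786 did not pass the test. Its values were 3.29 and 3.55 in the atvap mutant, inside the WT values of 2.97 and 4.03. Among all probe sets both atvap mutant arrays lay above both WT arrays for 10.7% and below both for 7.28%. EMB2786 averaged 3.42 ± 0.19 in the atvap mutant and 3.50 ± 0.75 in WT (SD, n = 2 arrays each). The difference over all 6 arrays was -0.079 ± 0.54 log units, with a 95% interval of -1.40 to 1.24 (limma adjusted p = 0.9999). In this comparison 0% of the 22746 probe sets passed an adjusted p of 0.05 in limma, the only tool run, and 218 (0.958%) had an unadjusted p under 0.05. The sign turned without atvap mutant replicate 1 (0.054) and without WT replicate 2 (0.45), and without WT replicate 1 the difference was -0.61. With the 4 concordant arrays EMB2786 was lower in the atvap mutant by -0.47 ± 0.22 log units, with an interval of -1.07 to 0.12 (limma, moderated across all probe sets, adjusted p = 0.465). That value sets 1 array against 1 array, with the spread taken from the TaVAPOE pair. In that fit 13% of probe sets had an unadjusted p under 0.05, while EMB2786 missed that level, and 0% passed after adjustment.

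Between TaVAPOE and WT, EMB2786 did not pass either. It read 3.95 and 3.85 in TaVAPOE, between the 2.97 and 4.03 of WT, and averaged 3.90 ± 0.067 in TaVAPOE and 3.50 ± 0.75 in WT (SD, n = 2 arrays each). Among all probe sets both TaVAPOE arrays lay above both WT arrays for 25.3% and below both for 20.8%. The difference over 6 arrays was 0.40 ± 0.54 log units, with an interval of -0.92 to 1.72 (limma adjusted p = 0.875). Here too 0% of probe sets passed in limma, with 486 (2.14%) at an unadjusted p under 0.05. The sign rested on WT replicate 1, since without that array the difference was -0.13 log units, and without WT replicate 2 it was 0.93. The fit to the 4 concordant arrays gave -0.13 ± 0.19, with an interval of -0.64 to 0.39 (limma adjusted p = 0.746), where 9 probe sets, or 0.0396%, passed and 21.1% had an unadjusted p under 0.05.

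TaVAPOE and the atvap mutant were the only pair of genotypes whose EMB2786 values did not overlap. Both TaVAPOE arrays (3.95 and 3.85) lay above both atvap mutant arrays (3.29 and 3.55). The same held for 19.8% of all probe sets, and the opposite order for 19.7%, so this separation does not set the gene apart. The difference was 0.48 ± 0.54 log units, with an interval of -0.85 to 1.80 (limma adjusted p = 0.870), and 0% of probe sets passed, with 297 (1.31%) at an unadjusted p under 0.05. It was positive in each fit that left out 1 array (0.34 to 0.61) and was 0.34 ± 0.19 over the 4 concordant arrays. Since the values of the 2 genotypes did not overlap, leaving out arrays could not turn the sign, so this adds no support. The intervals of all 3 comparisons reach past 1 log unit in at least 1 direction, so these arrays do not show that EMB2786 is equal among the genotypes.

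**Figure D2:**
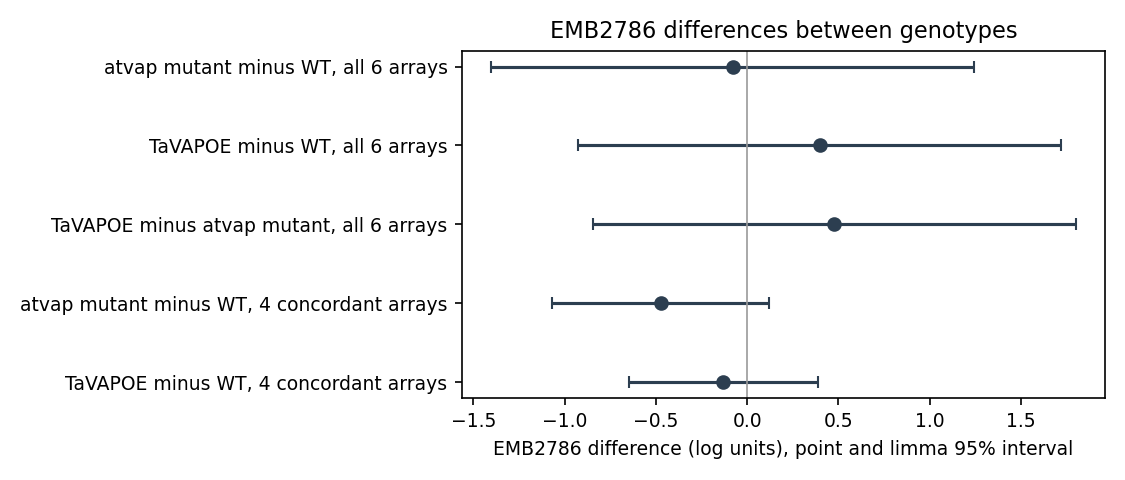
Differences of EMB2786 between genotypes (log units, horizontal axis) as points with limma's 95% intervals as bars, for the fit to all 6 arrays (upper 3) and to the 4 concordant arrays (lower 2). Each interval includes 0, and TaVAPOE minus WT is 0.40 over 6 arrays and -0.13 over the 4 concordant arrays.

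Both discordant arrays read EMB2786 lower than the concordant mean of 3.84, by less than 1 log unit. The value on atvap mutant replicate 1 stood at -0.56 log units from that mean and the value on WT replicate 1 at -0.87. Over all probe sets, 24% were lower by over 1 log unit on atvap mutant replicate 1 and 26.7% on WT replicate 1. Within the level range of 3 to 5 these shares were 37% and 41.8%, and EMB2786 was not among them on either array.

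The size of this shortfall lay near the middle for probe sets in the level range of EMB2786. The median difference in the range of 3 to 5 was -0.65 log units on atvap mutant replicate 1, where 53.9% of the probe sets read further below their concordant mean than EMB2786 did. On WT replicate 1 the median was -0.76, and 46.2% read further below it. For probe sets with a concordant mean from 5 to 7 the medians were -2.75 on atvap mutant replicate 1 and -2.14 on WT replicate 1. At 7 and above they were -4.60 and -2.08 on the same arrays. Below 3 the medians were 0.73 and 0.51, so most dim probe sets did not share the shortfall. The level ranges were set by the same concordant mean that was subtracted. On arrays that correlate weakly with that mean, such a trend with level follows in part from the measure itself. The middle part of each discordant array was also narrower, with an interquartile range of 0.99 log units on atvap mutant replicate 1 and 1.24 on WT replicate 1, against 1.75 to 2.12 on the concordant arrays. With quantile normalization, which gives all arrays the same distribution, EMB2786 read 3.51 and 3.45 on the atvap mutant arrays, 3.79 and 3.66 on the TaVAPOE arrays, and 2.97 and 3.95 on the WT arrays. The difference from the concordant mean was then -0.20 log units on atvap mutant replicate 1 and -0.74 on WT replicate 1. These are descriptions of single arrays, and the part of RNA or array quality in the shortfall was not tested.

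**Figure D3:**
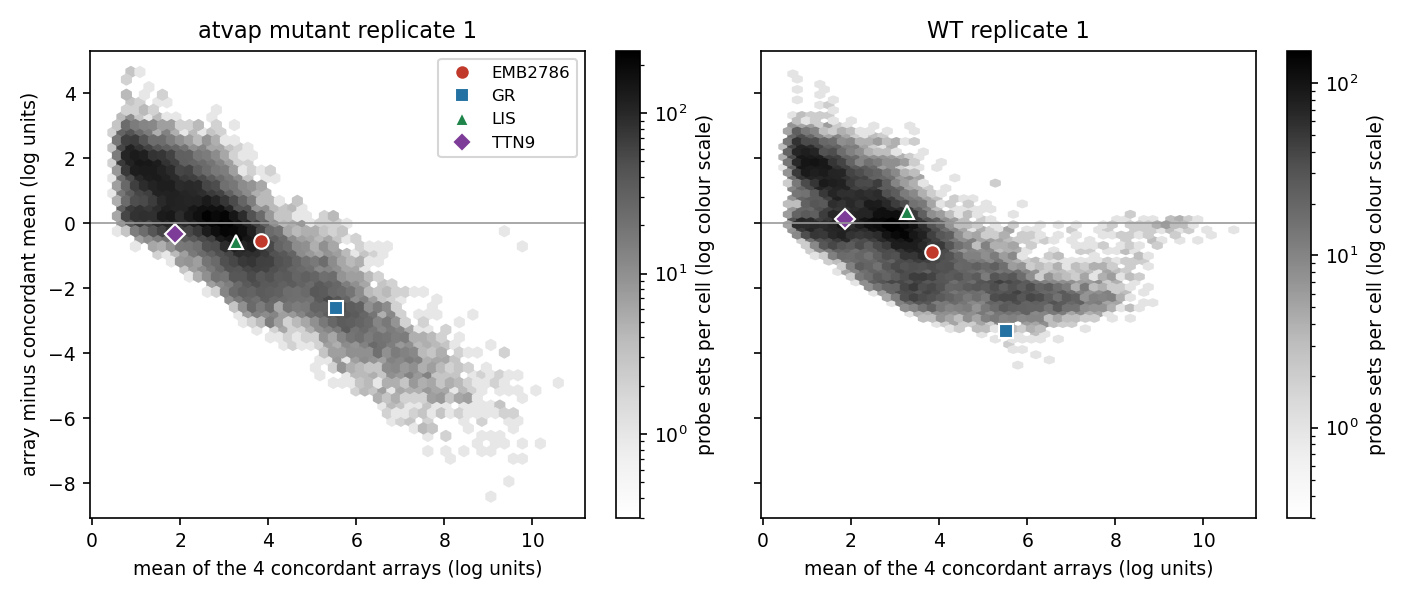
Value on atvap mutant replicate 1 (left) and WT replicate 1 (right) minus the mean of the 4 concordant arrays, against that mean (both in log units), with the number of probe sets per cell on a log colour scale. EMB2786 lies within the dense band on both arrays (-0.56 and -0.87). GR, brighter at a concordant mean of 5.53, lies at -2.62 and -3.31, where probe sets from 5 to 7 have medians of -2.75 and -2.14. LIS and TTN9, the other genes named from seed or embryo sac phenotypes, lie at -0.57 and -0.33 on atvap mutant replicate 1. On WT replicate 1 they lie above their concordant means, at 0.36 and 0.12.

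For 2 other genes RefSeq lists an EMB number among older names, and they were set beside EMB2786 after the rule had found a single gene. GR (EMB2360), a glutathione reductase that keeps glutathione in its reduced form in organelles, averaged 5.53 log units on the concordant arrays. It read 2.91 and 5.67 in the atvap mutant, 5.54 and 5.52 in TaVAPOE, and 2.22 and 5.39 in WT, so its genotypes spanned only 0.28 log units on the concordant arrays while it lay -2.62 and -3.31 log units from its concordant mean on atvap mutant replicate 1 and WT replicate 1. The medians for probe sets with a concordant mean from 5 to 7 were -2.75 and -2.14 on these arrays. The 25th percentiles there were -3.37 and -2.47, so GR passed that of WT replicate 1 alone. LIS (EMB2776, LACHESIS), known for keeping accessory cells of the female gametophyte from taking on egg cell fate, averaged 3.26. It read 2.69 and 3.10 in the atvap mutant, 3.84 and 3.35 in TaVAPOE, and 3.62 and 2.76 in WT, and its TaVAPOE replicates differed by 0.48 log units, more than those of EMB2786. Of the genes named MEE, EDA, UNE or TTN with a number, which come from related screens for embryo and embryo sac defects, TTN9 alone carried such a symbol on a single-gene probe set in the annotation used here. TTN9 lay between 1.55 and 2.12 log units on the concordant arrays, with 29.1% of probe sets below its mean there. None of GR, LIS and TTN9 passed the test in any comparison (limma adjusted p of at least 0.865).

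The 5 genes whose profile over the 6 arrays was most like that of EMB2786 were AT1G76810, AT4G00755, AT4G34265, AT3G52110 and AT3G21360, by a measure chosen after the rule for members had found a single gene. Each gene was taken from its own mean over the 6 arrays, and likeness was the root mean square difference between these profiles, which was 0.079 to 0.11 log units for the 5 genes. EMB2786 stood at -0.32 and -0.053 log units from its own mean on the atvap mutant arrays, 0.34 and 0.24 on the TaVAPOE arrays, and -0.63 and 0.42 on the WT arrays. AT1G76810, the most like it, stood at -0.21 and -0.0028, 0.35 and 0.23, and -0.64 and 0.27 log units on the same arrays. All 5 genes had their lowest value on WT replicate 1, so the likeness includes the discordance of that array.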

How the data were processed

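Per the labels' protocols, biotinylated cRNA was made from 3 µg of total RNA and hybridised to Affymetrix arrays. The authors deposited 22810 probe-set scores per array on a log scale; no source used here gives its base, nor how probes were summarised or arrays normalized. Agilent Feature Extraction, with no version, is the tool in the submitters' processing notes; it is made for Agilent arrays and does not match the Affymetrix arrays of the labels, so how the values were made is uncertain. Values were used as deposited, with medians of 2.74 to 2.88 per array, and no depth applies to arrays, whose number limits the precision. After removal of 64 control probe sets 22746 were tested; 13513 have 1 gene in the platform annotation, 503 have several and 8730 are unnamed here, and 13436 were matched to RefSeq by Entrez identifier. EMB2786 has 1 probe set and 3 RefSeq transcripts, and the RefSeq span of DRM3 overlaps its own; DRM3 was not analysed here.

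Comparisons were contrasts in a single model in limma 3.58.1 under R 4.3.3, fitted to the 6 arrays with 3 residual degrees of freedom and Benjamini-Hochberg adjustment over all probe sets; ± beside a difference is the moderated standard error. The 4-array fit has 1 residual degree of freedom. Alternatives covered scaling, filters, a floor, the replicate block, and leaving out each array. The member rule, lists and 4-array fit were chosen with earlier results of these data known. The naming rule ranked members by level, difference and shortfall; with 1 member it names EMB2786 under each part. Planned functional classes and sequence features were not run, since the tables used here hold neither product names nor sequences.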

Additional observations from a re-analysis of the deposited data

How the results depend on the processing

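EMB2786 did not pass an adjusted p of 0.05 under any alternative run. For the atvap mutant minus WT its difference of -0.079 over 6 arrays turned to 0.021 with quantile normalization, to 0.054 without atvap mutant replicate 1 and to 0.45 without WT replicate 2, and leaving out 1 array gave -0.61 to 0.45. For TaVAPOE minus WT the 0.40 turned to -0.13 without WT replicate 1 and in the 4-array fit, and leaving out 1 array gave -0.13 to 0.93. TaVAPOE minus the atvap mutant stayed at 0.24 to 0.61, but only quantile normalization (0.24) and median centring (0.53) could turn its sign. The concordant mean of 3.84 was 3.71 with quantile normalization. The difference from the concordant mean, -0.87 on WT replicate 1, was -0.74 with quantile normalization and -0.96 with median centring, and the -0.56 on atvap mutant replicate 1 was -0.20 and -0.69; the cause was not tested. The genotype span stayed at 0.47 to 0.50.

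Counts over all probe sets depended on the setting. Over 6 arrays 0 passed in each comparison, but the 4-array fit gave 9 for TaVAPOE minus WT and 15 for TaVAPOE minus the atvap mutant. In the 4-array fit of TaVAPOE minus WT the 9 became 32 with quantile normalization, 747 with median centring, 0 with values raised to 1.66, 5 with gene means and 3 without probe sets that can match several transcripts. For the atvap mutant minus WT that fit gave 4 with median centring against 0; the cause was not tested.

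With the replicate block the differences of EMB2786 were -0.079 (limma adjusted p = 0.9998), 0.40 (0.865) and 0.48 (0.845), in the order of the comparisons in the report. Deviations of same-numbered arrays correlated at 0.58 for the atvap mutant and WT, 0.0884 for the atvap mutant and TaVAPOE and 0.0141 for TaVAPOE and WT. The 0.58 belongs to the pair that holds both discordant arrays. Each deviation was taken from a mean that includes replicate 2, and the concordant arrays, which hold both of those replicates, correlated at 0.94 to 0.98. The 2 discordant arrays themselves correlated at 0.072, so the 0.58 does not show that they deviated together. The labels do not say that a number marks a shared batch, and the arrays were not treated as paired. The block changed no call.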

Other observations

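The genes AT3G17280 and AT3G17290 (a pseudogene), which precede EMB2786 in the RefSeq order of the chromosome, read highest on both WT arrays, the discordant one included. They were looked at after the rule had found a single gene. AT3G17280 read 1.79 and 1.65 log units in the atvap mutant, 2.56 and 2.17 in TaVAPOE, and 3.35 and 2.86 in WT. AT3G17290 read 2.19 and 1.61 in the atvap mutant, 1.32 and 1.55 in TaVAPOE, and 2.62 and 2.65 in WT. Among all probe sets 7.28% lay below both WT arrays on both atvap mutant arrays, and 20.8% did so on both TaVAPOE arrays. The share below WT in both genotypes at once was not counted. AT3G17280 differed from WT by -1.39 ± 0.47 in the atvap mutant (limma adjusted p = 0.9999) and by -0.74 ± 0.47 in TaVAPOE (adjusted p = 0.870). AT3G17290 differed by -0.74 ± 0.47 (limma adjusted p = 0.9999) and -1.20 ± 0.47 (adjusted p = 0.870). None of these passed, and some of the values lie below 1.66, the 20th percentile of all values.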
